A study of Danio rerio with 20 samples.

Results

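CreLox zebrafish that had developed hepatocellular carcinoma (HCC) were compared with siblings that carried the Cre driver alone. The comparison took 8 of the 20 liver libraries of the series, 4 CreLox fish with HCC (fish 604, 605, 623 and 624) and 4 sibling controls (fish 621, 622, 628 and 630), all chosen by their genotype and diagnosis in the sample labels. CreLox fish were Tg(fabp10a-CreERT2; fabp10a-flox-β-catenin), in which the hepatocyte promoter fabp10a drives both a tamoxifen-inducible Cre and an activated β-catenin. In the study's design, loxP sites flank a blue fluorescent protein stop cassette ahead of β-catenin. Cre removes this cassette, which switches activated β-catenin on. CreLox fish were exposed to 10 µM 4-hydroxytamoxifen (TAM) from 3 to 6 days post fertilization (dpf). Controls were Tg(fabp10a-CreERT2) and received 0.1% ethanol over the same days. Both groups therefore carry the Cre transgene, but the β-catenin transgene and the TAM exposure come together in the CreLox fish and cannot be told apart. All fish were sampled at 11 months post fertilization (mpf). The study's methods give their sex as male. Part of each liver went to histology and part to mRNA sequencing, with 1 library per fish. Another 2 CreLox fish given TAM and diagnosed as free of HCC (fish 609 and 625) entered the model only to help estimate the spread, and their values are given where they help in reading a change.

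β-catenin is the transcriptional effector of canonical Wnt signaling. In a mature liver, Wnt signaling to hepatocytes sets which of them run glutamine synthesis, bile acid synthesis and cytochrome P450 metabolism and which run gluconeogenesis and ammonia handling, and activating mutations of β-catenin are frequent in human HCC. Hepatocytes also make most plasma proteins, which pass through the endoplasmic reticulum (ER), fold there with the help of chaperones and receive N-linked sugars. Lists of genes for these and other liver functions were read across the comparison, and each list is described by how many of its tested members passed the test, to be read against 2.39% of all genes called higher and 1.81% called lower.

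Depth was similar in both groups, with 25195573 to 31074527 counts per HCC library and 20903187 to 29925385 per control library. Of 32520 gene identifiers, 16837 passed the filter on low counts. Symbols in capitals follow the human name, and some are shared by duplicated zebrafish genes, so the identifier is given with the main genes. Levels below are TMM-scaled CPM, which divide each count by the effective library size, listed for the HCC fish in the order 604, 605, 623, 624 and for the controls in the order 621, 622, 628, 630. On the first principal component, which held 31.6% of the variance, all HCC fish lay apart from all controls, but fish 624 was at 17.1 while the other 3 lay between 57.8 and 70.9. The CreLox fish without HCC, 609 and 625, were at 31.1 and 13.8, on either side of fish 624. The study's methods count 3 CreLox fish with HCC where the labels give 4, and which fish differs is not stated. The controls themselves fell into pairs on the second component (18.2% of the variance), with fish 621 and 622 at 61.0 and 57.9 and fish 628 and 630 at -80.7 and -54.8. The 50 most abundant control genes took 46.2% and 47.4% of counts in fish 621 and 622, 41.5% and 42.1% in fish 628 and 630, and 36.5% to 42.8% in the HCC fish, the highest being fish 624. No label explains these differences, and for many of the results that rest on them values without those fish are also given.

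**Figure D1:**
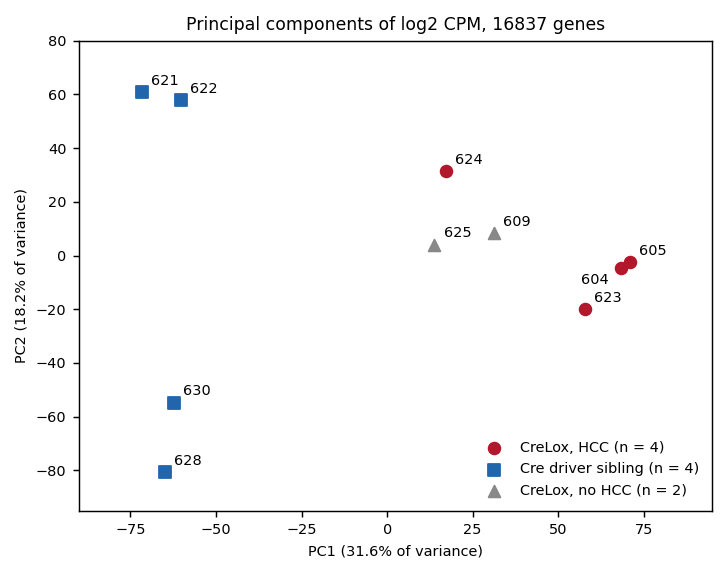
Principal components of log2 CPM over 16837 genes. Red circles are CreLox fish with HCC, blue squares are Cre driver siblings and grey triangles are CreLox fish without HCC. The 4 HCC fish lie to the right of the 4 controls on the first component (31.6% of variance), fish 624 nearest to them, and the controls split into pairs on the second (18.2%).

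Across all genes, 403 were significantly higher (2.39% of those tested) and 304 significantly lower (1.81%) in CreLox HCC compared to sibling controls, 707 in all (4.2%), at a Benjamini-Hochberg adjusted p under 0.05 in edgeR's quasi-likelihood test. The median log2 fold change over all genes was -0.05. All 4 HCC fish were above all 4 controls for 1266 genes (7.52%) and below them for 1095 (6.5%). Scaling by library size alone gave 854 higher and 188 lower genes and moved the median to 0.22, so a small common shift in direction depends on the scaling. Without fish 624 the counts rose to 560 and 436, and without fish 604 they were 165 and 69. They were 172 and 72 without fish 605, and 215 and 72 without fish 623. Without control fish 622 they were 291 and 203, and without control fish 628 they were 244 and 183. With controls 621 and 622 left out they were 773 and 913, and with controls 628 and 630 left out 298 and 302. Counts of list members called under an omission are to be read against these totals. Between HCC and non-HCC CreLox fish 1 gene passed the test (0.00594%), and 514 had an unadjusted p under 0.05.

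The functional lists and the dysregulated genes overlapped unevenly. Of 1360 tested genes in the liver function, pathway and machinery lists, 20 were higher (1.47%) and 54 lower (3.97%). Among the other 15477 genes, 383 were higher (2.47%) and 250 lower (1.62%). These include genes found only in marker lists or in the lists drawn up after values had been seen. Members of all lists were chosen with earlier results of these data known, so the contrast between these shares is no independent evidence. Function lists with the lowest medians were AP-1 and immediate early genes at -1.05, ER chaperones at -0.88, extracellular matrix at -0.86 and amino acid transporters at -0.80 on the log2 scale. Most liver function lists held few called genes, so a low median often came without calls for single genes.

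**Figure D2:**
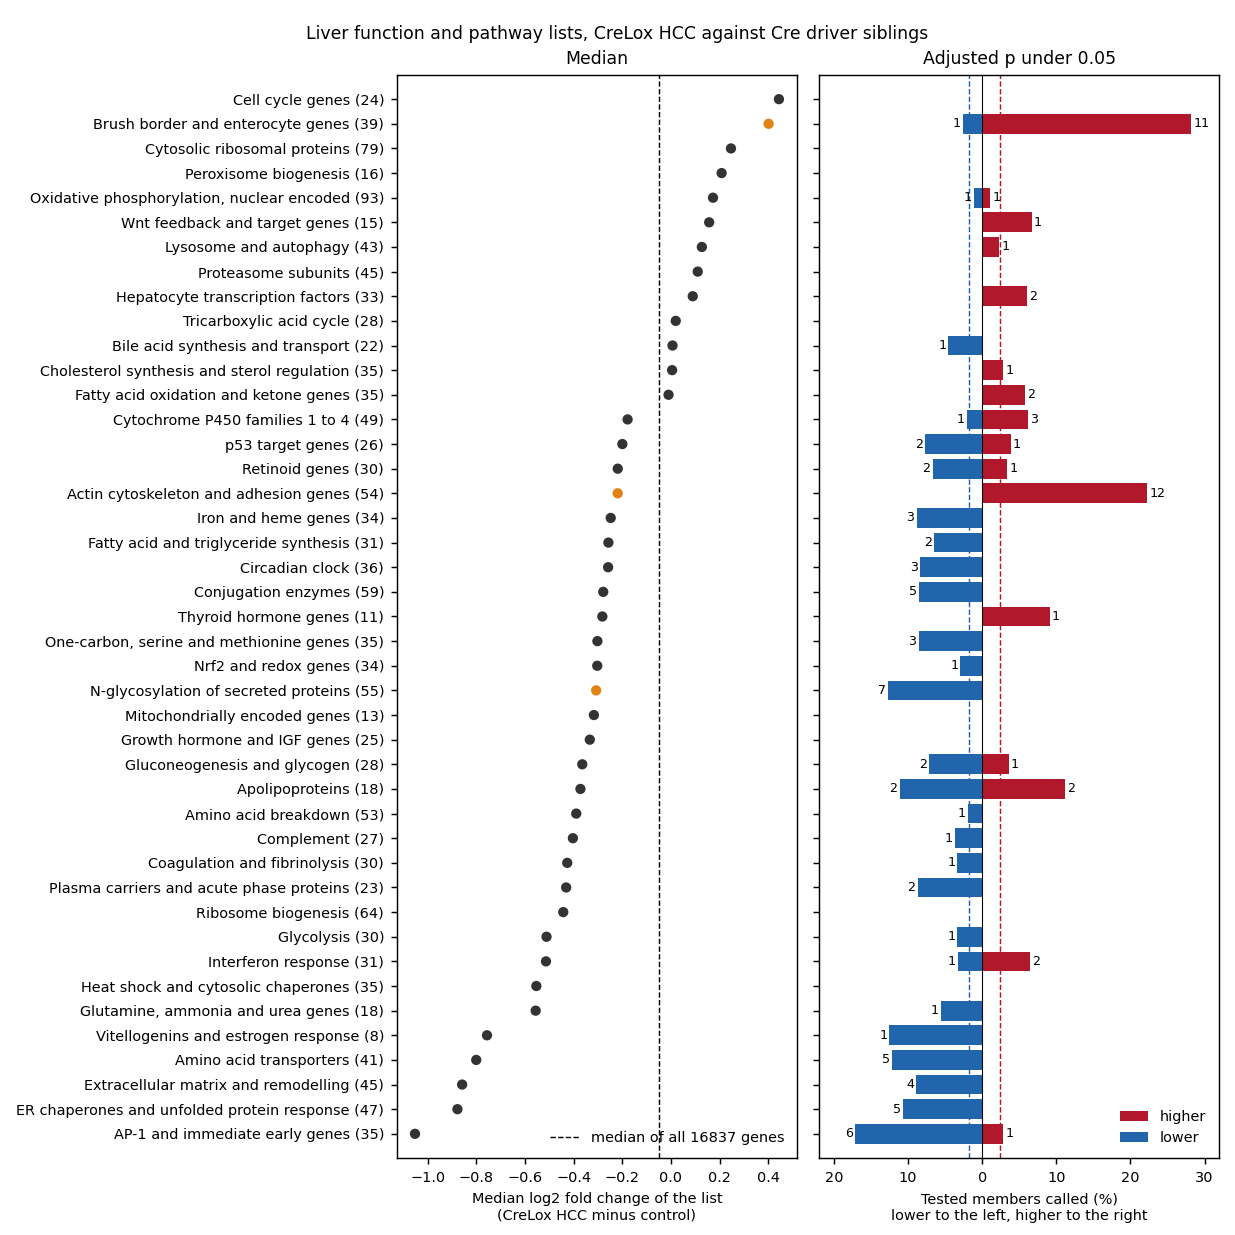
Left, the median log2 fold change (CreLox HCC minus control) of each function list, with the number of tested genes in brackets and the median of all 16837 genes (-0.05) as a dashed line. Right, the percent of tested members called higher (red) or lower (blue) at an adjusted p under 0.05, with counts beside the bars and the shares over all genes (2.39% and 1.81%) as dashed lines. Orange points are the 3 lists drawn up after values had been seen. Cell type marker lists are not drawn. Of the lists drawn, AP-1 and ER chaperone genes have the lowest medians, and the brush border and actin lists the most genes called higher.

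Wnt targets were read first, because β-catenin is the transgene. The deposited table counts zebrafish genes, and the level of the transgene itself was not measured here. WIF1 (ENSDARG00000005541), a secreted Wnt inhibitor, was at 8.85, 22.8, 11.7 and 7.77 CPM in the HCC fish and 0.866, 2.52, 2.25 and 0.967 in the controls. Every HCC fish lay above every control, and the log2 fold change was 2.95 ± 0.46 (SE) (edgeR adjusted p = 0.0104). The CreLox fish without HCC were as high, at 20.6 and 24.9 CPM. WIF1 was the one member called among 15 Wnt feedback and target genes (6.67% higher, against 2.39% of all genes), while DESeq2 called 4 higher and limma voom 2. At an unadjusted p under 0.05, 6 of the 15 were higher and 2 lower, where all genes gave 11% and 12.5%. Every HCC fish was above every control for 3 (20%, against 7.52% of all genes) and below for 1 (6.67%, against 6.5%). The median of the list was 0.16, but 1.03 without control fish 628, 0.57 without HCC fish 624 and 0.82 with fish 628 and 630 left out. AXIN2 (ENSDARG00000100149), the classical negative feedback gene, was at 14.2, 20.8, 16.2 and 10.6 against 5.32, 8.79, 9.85 and 8.57 CPM and did not pass the test (log2 fold change 0.93 ± 0.38 (SE), edgeR adjusted p = 0.180), although the groups did not overlap. NKD1, another feedback inhibitor, reached 1.90, 14.1, 1.76 and 0.868 CPM, with fish 605 far above the other 3, and the controls were at 0.736, 1.31, 0.663 and 0.967 CPM (edgeR adjusted p = 0.117). The glutamine synthetase genes annotated GLUL, a hallmark Wnt target of the mammalian liver, were not called in either direction by edgeR. ENSDARG00000100003 had levels of 3.04, 12.5, 10.8 and 10.8 CPM against 44.1, 16.5, 158 and 31.7, every HCC fish below every control. Its log2 fold change was -2.76 ± 0.78 (SE) (edgeR adjusted p = 0.0756), and DESeq2 called it lower (adjusted p = 0.00238). ENSDARG00000099776 overlapped between groups, at 23.1, 43.3, 16.3 and 188 CPM against 180, 116, 17.3 and 22.4 (edgeR adjusted p = 0.867).

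Proliferation genes did not separate the groups. None of 24 cell cycle genes was called by edgeR, DESeq2 or limma voom, 3 had an unadjusted p under 0.05, and their median was 0.44. The proliferation marker mki67 was at 1.63, 8.11, 1.36 and 1.04 CPM in the HCC fish and 1.73, 2.96, 2.75 and 1.29 in the controls. Fish 605 alone exceeded all controls. The median of the list depended on single fish, at 0.01 without fish 605, 0.76 without HCC fish 624 and 0.87 without control fish 622. With fish 621 and 622 left out it was 1.27, and 1 member was called higher and 1 lower.

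Genes of the epithelial apical surface were among the largest increases. cldn15la (ENSDARG00000016081), a claudin of the tight junction, was at 149, 163, 89.8 and 41.2 CPM in the HCC fish and 0.0866, 1.31, 0.0663 and 0.138 in the controls. Its log2 fold change was 8.17 ± 0.99 (SE) (edgeR adjusted p = 0.00315), and the non-HCC CreLox fish were at 106 and 49.9 CPM. dpp4 (ENSDARG00000079420), a membrane peptidase of the brush border, was at 77.4, 97.03, 53.4 and 24.7 CPM against 0.952, 1.55, 0.464 and 0.921, a log2 fold change of 6.03 ± 0.54 (SE) (edgeR adjusted p = 0.00126). A second claudin, cldn15a, rose by a log2 value of 5.21 and the keratin krt18a.1 (ENSDARG00000018404), an intermediate filament gene of simple epithelia, rose by 1.83, from 324, 451, 289 and 279.5 CPM to 1691, 1561, 986 and 526. Fish 624 was the lowest HCC fish for each of these 4 genes. Without fish 604 the edgeR adjusted p was 0.0701 for krt18a.1 and 0.0523 for cldn15a, and both cldn15la and dpp4 passed under each of the 17 alternatives.

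A list of brush border and enterocyte genes, drawn up after these values had been seen and so no independent evidence, held 11 higher (28.2%, against 2.39% of all genes) and 1 lower of 39 tested genes, and 6 to 12 higher on omission of 1 fish, the fewest without fish 604. The proteins that cap and bundle microvilli were in it, chosen here after their values were seen. eps8l3a was at 57.3, 60.5, 53.4 and 17.4 CPM against 1.47, 2.28, 2.62 and 1.38 and eps8l3b at 26.1, 36.8, 24.8 and 4.25 against 0.303, 1.84, 1.09 and 0.645. cdhr5b, a protocadherin that links microvilli in mammals, was at 14.7, 8.42, 12.8 and 3.86 against 0.649, 0.680, 1.23 and 2.16 CPM. The peptidase ace was also higher, at 28.4, 37.2, 3.34 and 5.68 CPM against 0, 0.146, 0.232 and 0.0921, with an edgeR adjusted p of 0.0355 that rose to 0.0847 without fish 605 and to 0.427 in limma voom. Not all genes of the list followed, since vil1 (annotated VIL1), which encodes the microvillar protein villin, stayed at or under 0.73 CPM in every one of the 8 fish. The peptidase anpeplb was lower, at 0.0876, 0.0311, 0.124 and 0.0868 CPM against 1.13, 1.89, 1.39 and 1.01.

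Biliary cells also bear such proteins. Of 13 biliary and progenitor markers, 3 were higher (23.1%, against 2.39% of all genes) and PROM1 was lower (7.69%, against 1.81%), and 7 had a positive log2 fold change. The 3 were cldn15la, cldn15a and krt18a.1, the same genes described above, so they add no separate observation. The summed level of all 13 markers was 6083, 5223, 3931 and 3236 CPM in the HCC fish and 2032, 2991, 1779.6 and 1813 in the controls. Each HCC fish exceeded each control, but this sum includes the 3 called genes. The defining markers SOX9 (ENSDARG00000043923), at a mean of 10.6 ± 1.75 CPM against 13.2 ± 6.83 (SD, n = 4), and epcam, at 15.6 ± 5.15 against 31.3 ± 16.4, were not higher. A part of biliary cells in the increase was not tested. The summed 7 tested intestine markers overlapped between groups, at 184, 314, 436 and 200.2 CPM against 195, 126, 197 and 95.7.

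Some actin-binding and contractile genes rose beside the epithelial genes. In a list of 54 such genes, again drawn up after values had been seen, 12 were higher (22.2%, against 2.39% of all genes, and 6 without fish 604, 605 or 623) and none lower by edgeR, with 15 lower at an unadjusted p under 0.05, 6 lower by DESeq2 and 1 lower by limma voom. The median of the list was -0.22, so the increase was in part of the list only. flna (ENSDARG00000074201), which encodes the actin crosslinker filamin A, was at 248, 259.9, 90.7 and 38.96 CPM in the HCC fish and 12.4, 17.5, 41.6 and 11.05 in the controls, with fish 628 above fish 624. Its log2 fold change was 2.95 ± 0.70 (SE) (edgeR adjusted p = 0.0445, and 0.117 without fish 604). FHL1 (ENSDARG00000056653), a LIM-domain protein of muscle and cytoskeleton, was at 38.8, 69.8, 47.3 and 19.5 CPM against 0.649, 3.93, 1.23 and 4.28, a log2 fold change of 4.13 ± 0.68 (SE) (edgeR adjusted p = 0.0127). ANKRD1 (ENSDARG00000076192), a target of YAP signaling in mammals, was at 26.3, 30.3, 113 and 0.737 CPM against 0.130, 0.388, 0.0332 and 0.138, with the highest value in fish 623 and the lowest in fish 624. It passed in edgeR (adjusted p = 0.0184) and not in limma voom (adjusted p = 0.295). The myosin kinase gene MYLK (ENSDARG00000034801), chosen after its values were seen, was at 111, 134, 103 and 77.8 against 15.5, 17.96, 15.7 and 15.3 CPM. Cytoplasmic actin actb2 overlapped fully between groups, at 2130.2, 1967, 1275 and 2846 against 2528, 3149.8, 1953 and 2032 CPM. Among 14 stellate cell markers, which share such genes, TAGLN alone was called higher by edgeR (7.14%, against 2.39% of all genes) and none lower. The edgeR adjusted p of TAGLN was 0.0246, and 0.0710 without fish 605. The median of these markers was -0.74, with 4 positive log2 fold changes and 7 lower at an unadjusted p under 0.05. DESeq2 called 4 lower and 1 higher, and limma voom 1 in each direction. The defining gene HAND2 was at 1.81, 5.28, 2.88 and 2.82 CPM against 1.82, 4.85, 4.31 and 2.86.

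**Figure D3:**
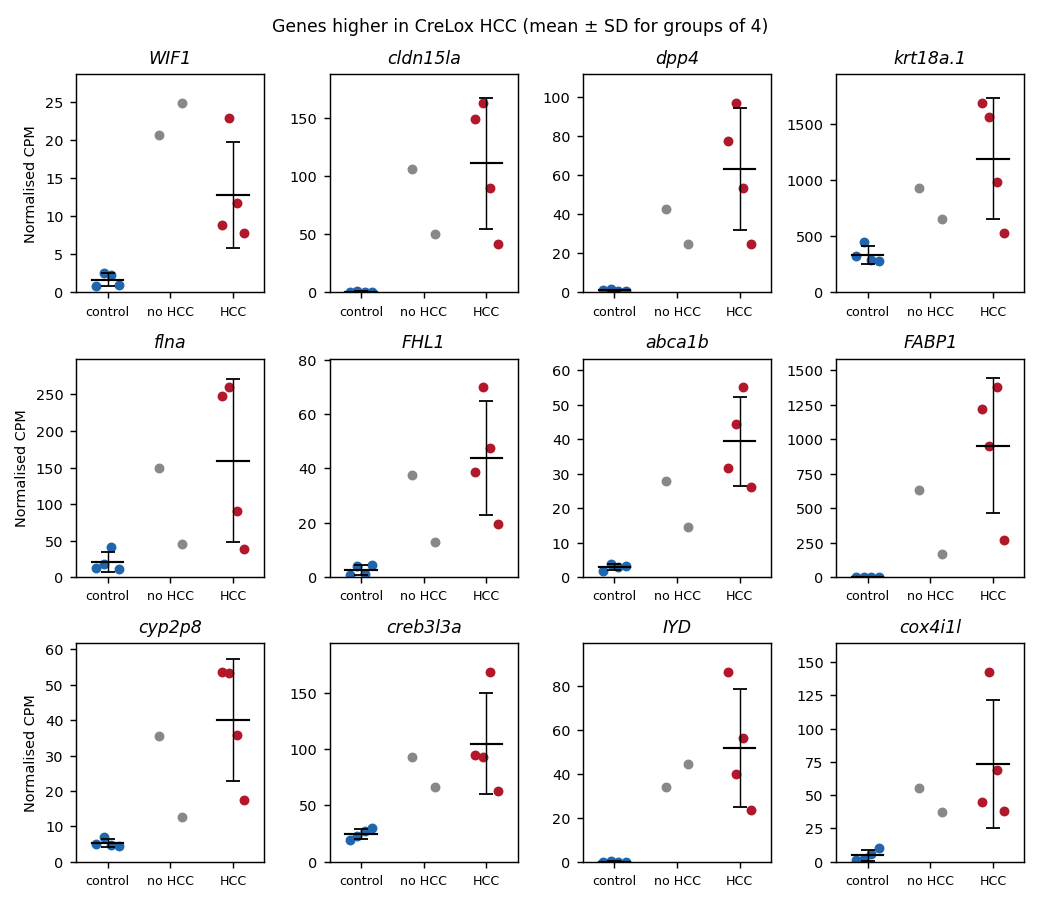
Normalised CPM of 12 genes called higher, per fish, in controls (blue), CreLox fish without HCC (grey) and CreLox fish with HCC (red). Lines are means and bars are SDs for the groups of 4. All HCC fish lie above all controls in each panel except flna, where control fish 628 at 41.6 CPM exceeds HCC fish 624 at 39.0.

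Several secretory pathway genes were lower. Of 47 tested ER chaperone and unfolded protein response genes, 5 were significantly lower (10.6%, against 1.81% of all genes) and none was higher by edgeR, where 1 had an unadjusted p under 0.05. A further 25 had an unadjusted p under 0.05 in the lower direction, and 4 of the 47 had a positive log2 fold change. P4HB (ENSDARG00000105116), a protein disulfide isomerase, was at 251, 327, 343 and 307 CPM in the HCC fish and 641, 532, 668 and 527 in the sibling controls, with a log2 fold change of -0.95 ± 0.17 (SE) (edgeR adjusted p = 0.0194). PDIA3 (ENSDARG00000102640), a related isomerase that folds glycoproteins, was at 339, 313, 319 and 487 against 761, 804, 628 and 565 CPM (log2 fold change -0.92 ± 0.22 (SE), edgeR adjusted p = 0.0483). TRIB3 (ENSDARG00000016200), a stress-induced pseudokinase, was at 6.83, 8.36, 5.57 and 11.15 against 35.8, 22.4, 22.7 and 27.2 CPM (log2 fold change -1.76 ± 0.34 (SE), edgeR adjusted p = 0.0229). For these genes the groups did not overlap. Leaving out 1 fish gave 0 to 4 lower members, the fewest without fish 604. Without fish 604 the adjusted p values were 0.0684, 0.142 and 0.0817.

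The size of the ER change depended on the control pair. The major chaperone HSPA5 (ENSDARG00000103846) was at 96.7, 192, 231 and 216 CPM in the HCC fish and 199, 215, 2839.5 and 1014 in the controls, so that fish 621 and 622 lay within the HCC range and fish 628 was highest (edgeR adjusted p = 0.0979). Summed over the list, the level was 3197, 3665, 3588 and 3902 CPM in the HCC fish and 5232, 4936, 11970.0 and 7134 in the controls, with no overlap. With fish 621 and 622 left out, 23 members were lower, where 913 of all 16564 genes were, and the list's median was -0.95. With fish 628 and 630 left out, 2 were lower, against 302 of all 16474 genes, and the median was -0.17. Exocrine pancreas RNA, which is rich in such chaperones and can be taken with fish liver, had summed markers of 1178, 160.3, 88.7 and 555 CPM in the controls and 83.1, 87.9, 61.2 and 28.8 in the HCC fish. Among controls fish 621 and 630 were highest for these markers, and fish 628, highest for the ER list, was lowest. None of its 25 markers was called by edgeR or limma voom, 21 had an unadjusted p under 0.05, and DESeq2 called 14, all lower. Its part in the result was not tested.

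Some enzymes of N-linked glycosylation were also lower, in a list drawn up after the values had been seen and so no independent evidence. Of its 55 genes, none was called higher by edgeR, limma voom or DESeq2, with 2 higher at an unadjusted p under 0.05. By edgeR 7 were lower (12.7%, against 1.81% of all genes). This count also depended on the control pair. With fish 621 and 622 left out 13 were lower (median -0.46), where 913 of all 16564 genes were. With fish 628 and 630 left out 4 were lower (median -0.06), against 302 of all 16474 genes. Omission of 1 fish gave 1 to 5 lower, the fewest without fish 604 or 623. DOLPP1, which recycles the dolichol carrier, was at 9.31, 6.03, 10.4 and 12.2 CPM against 17.9, 23.1, 19.996 and 22.5 (log2 fold change -1.14 ± 0.22 (SE), edgeR adjusted p = 0.0227). The mannosidase MAN1B1 was at 5.28, 3.76, 2.82 and 5.94 against 16.8, 40.6, 8.56 and 11.7 CPM, and the mannosyltransferase ALG12 at 5.55, 5.22, 4.64 and 3.82 against 8.96, 7.13, 20.6 and 14.2. Their adjusted p values without fish 604 were 0.0756, 0.0943 and 0.0999. The catalytic subunit STT3A of the oligosaccharyltransferase overlapped between groups, at 102, 133, 87.9 and 111 and 129.8, 109, 129 and 129 CPM.

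Immediate early genes, which many stimuli induce within minutes, had the lowest median of all function lists at -1.05. Of 35, 6 were lower (17.1%, against 1.81% of all genes) and 1 was higher. The count of lower genes was 1 without fish 605, 2 without fish 604 or 623, 3 without fish 628 and 9 without fish 624, and 2 with fish 628 and 630 left out. egr1 (ENSDARG00000037421), a zinc finger transcription factor, was at 8.17, 6.06, 2.76 and 5.596 CPM in the HCC fish and 14.6, 32.03, 43.04 and 28.3 in the sibling controls, with a log2 fold change of -2.38 ± 0.39 (SE) (edgeR adjusted p = 0.0125) that passed under each of the 17 alternatives. mcl1b (ENSDARG00000008363), an anti-apoptotic family member, was at 18.7, 32.4, 29.3 and 60.9 CPM against 176, 153, 117 and 192, a log2 fold change of -2.17 ± 0.39 (SE) (edgeR adjusted p = 0.0171, and 0.0568 without fish 605). FOS, the AP-1 subunit, was at 0.847, 0.777, 0.310 and 2.56 CPM against 2.12, 2.77, 44.004 and 42.2 and did not pass the test (edgeR adjusted p = 0.0509, and 0.0423 without fish 624), its high values resting on control fish 628 and 630. KLF6 was the member called higher, at 66.03, 70.9, 72.9 and 33.01 CPM against 14.8, 21.4, 29.4 and 18.1 (edgeR adjusted p = 0.0255, and 0.0756 without fish 604). The CreLox fish without HCC were as low as the HCC fish for egr1, at 2.49 and 3.51 CPM, and their list median against controls was -1.05. Both comparisons share the 4 controls.

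Secreted plasma proteins were for the most part not called, and their sums split along the libraries that stood apart. In bulk tissue, fewer hepatocytes and less RNA per hepatocyte cannot be told apart. Summed apolipoprotein RNA was 84487, 76668, 91666 and 105339 CPM in the HCC fish and 161729, 152604, 104969 and 105142 in the controls, and summed coagulation genes were at 32099, 31365, 31929 and 49445 against 60934, 58201, 38171 and 40929.6 CPM. In both lists fish 621 and 622 were highest and fish 624 reached the level of fish 628 and 630. Of 30 coagulation genes 28 had a negative log2 fold change, with a median of -0.43, but with fish 621 and 622 left out that median was -0.15 and none was called. serpinf2a (ENSDARG00000076448), the plasmin inhibitor, was the one member called (3.33%, against 1.81% of all genes), at 377, 368, 265 and 491 CPM against 1129.7, 937, 657 and 688 (log2 fold change -1.18 ± 0.25 (SE), edgeR adjusted p = 0.0279, and 0.0873 without fish 604). The fibrinogen chain fga, at 6146, 5907, 6554 and 9521 against 11629, 11579, 7392 and 8799 CPM, and prothrombin f2, at 2774, 3687, 2789 and 4313 against 4094, 3754, 2769 and 2818, overlapped between groups.

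Apolipoprotein genes diverged in direction. apoa2 (ENSDARG00000015866), a component of high density lipoprotein, was at 17649.9, 19819.9, 19708 and 24197 CPM in the HCC fish and 44242, 45341, 30802 and 30442 in the sibling controls, with a log2 fold change of -0.89 ± 0.20 (SE) (edgeR adjusted p = 0.0375, and 0.126 without fish 604). It was the one gene called among the 50 most abundant control genes (2% of them, against 1.81% of all genes lower), which had a median of -0.49. apobb.2 was also lower, by -1.64 on the log2 scale (edgeR adjusted p = 0.0362, and 0.113 without fish 604). apoa4a (ENSDARG00000101160), an apolipoprotein made by enterocytes in mammals, was at 9.14, 2.39, 4.46 and 5.81 CPM against 0, 0.0971, 0.0332 and 0.0461 (edgeR adjusted p = 0.00161), and apoea at 2.13, 17.1, 7.34 and 1.74 against 0.0433, 0.291, 0.199 and 0.0461 (adjusted p = 0.0154). Limma voom did not call either, with adjusted p values of 0.0766 and 0.190. The abundant apoa1a and apobb.1 were not called, with log2 fold changes of -0.20 ± 0.30 (SE) and -0.15 ± 0.28 (SE).

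Some acute phase, complement and iron genes were lower. Of 23 plasma carrier and acute phase genes 2, crp1 and hamp, were lower (8.70%, against 1.81% of all genes). None was higher by edgeR, 6 had a positive log2 fold change, and their summed level overlapped. With fish 621 and 622 left out 2 were higher and 1 lower. The leading gene hp was at 9.79 ± 3.43 CPM against 3.13 ± 2.94 (SD, n = 4) and was not called (edgeR adjusted p = 0.206). Of 34 iron and heme genes 3 were lower (8.82%) and none higher by edgeR, while DESeq2 called 2 higher. crp5 (ENSDARG00000056498), of the C-reactive protein family, was at 8.61, 44.1, 19.7 and 31.7 CPM against 749, 276, 424 and 128, a log2 fold change of -3.92 ± 0.65 (SE) (edgeR adjusted p = 0.0129). Its relative crp1 was at 0, 0.0932, 0.186 and 0.174 against 15.2, 13.3, 0.531 and 7.83 CPM, with control fish 628 close to the HCC fish. Since crp genes are near-identical copies, reads may have been split between them. c7b (ENSDARG00000057121), a terminal complement component, was at 14.7, 9.45, 16.01 and 12.9 CPM against 401, 563, 80.2 and 64.1, a log2 fold change of -4.39 ± 0.76 (SE) (edgeR adjusted p = 0.0162, and 0.0565 without fish 605). It was the one member called of 27 complement genes (3.70%, against 1.81% of all genes), and c3a.1 and c9 overlapped between groups. hamp (ENSDARG00000102175), which encodes the iron hormone hepcidin, was at 55.3, 34.9, 23.6 and 43.1 CPM against 265, 198, 166 and 118 (log2 fold change -2.25 ± 0.49 (SE), edgeR adjusted p = 0.0321, and 0.0981 without fish 605). The non-HCC fish were lower still, at 23.01 and 4.36 CPM. The heme oxygenase gene HMOX1 was at 8.58, 6.31, 28.1 and 19.2 against 31.7, 87.997, 66.98 and 74.8 CPM (edgeR adjusted p = 0.0466, and 0.129 without fish 604).

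Sterol and lipid genes changed singly rather than as lists. cyp39a1 (ENSDARG00000017982), an oxysterol hydroxylase of bile acid synthesis, was at 0.0292, 0.0932, 0.0929 and 0 CPM in the HCC fish and 46.4, 50.7, 21.5 and 14.7 in the controls. At most 3 counts were seen in any HCC library, so its fitted log2 fold change of -9.08 depends on the prior count (edgeR adjusted p = 0.00296). Of the 2 non-HCC fish, 609 was at 3.74 CPM and 625 at 0.116. The rate-limiting bile acid enzyme CYP7A1 ranged from 7.52 to 201 CPM within the HCC fish and overlapped the controls. abca1b (ENSDARG00000079009), a cholesterol exporter, was at 31.6, 44.5, 55.02 and 26.2 CPM against 1.77, 3.74, 3.05 and 3.32, a log2 fold change of 3.73 ± 0.35 (SE) (edgeR adjusted p = 0.00142) and no overlap. Synthesis genes overlapped, with FASN at 115, 88.3, 123.2 and 154 against 195, 105, 467 and 656 CPM (edgeR adjusted p = 0.0944) and ldlra at 61.6, 44.6, 51.2 and 1031 against 2048, 1223, 169 and 397. The edgeR adjusted p of ldlra was 0.411 with all fish and 0.0428 without fish 624. GPAT3 (ENSDARG00000016048), which starts triglyceride assembly, was lower at 12.7, 17.1, 17.8 and 31.1 CPM against 58.8, 55.2, 41.6 and 46.02 (log2 fold change -1.36 ± 0.27 (SE), edgeR adjusted p = 0.0245, and 0.0803 without fish 605).

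One fatty acid binding gene went from near 0 to among the abundant genes. FABP1 (ENSDARG00000059227, a symbol shared with another identifier) was at 1215, 951, 1376 and 270.3 CPM in the HCC fish and 0.0433, 0.146, 0.332 and 0.875 in the sibling controls, with a log2 fold change of 11.40 ± 1.03 (SE) (edgeR adjusted p = 0.00126). The non-HCC CreLox fish had 634 and 169.8 CPM. The enterocyte paralog FABP2 was at 131, 240.1, 385 and 164 against 153, 52.6, 148 and 51.1 CPM and was not called (edgeR adjusted p = 0.153). fabp10a (ENSDARG00000038439), the main liver paralog in fish, whose promoter drives both transgenes, was at 14273, 13122, 14178 and 12881 CPM against 26453, 24288, 17734 and 13482 and was not called (log2 fold change -0.59 ± 0.24 (SE), edgeR adjusted p = 0.170). Beta oxidation genes had a median of -0.01, and the entry enzyme cpt1ab was at 91.5, 94.2, 98.98 and 61.3 against 34.2, 55.96, 30.7 and 53.7 CPM, and did not pass the test (edgeR adjusted p = 0.0542, and 0.0300 without fish 624).

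A glucose transporter and a glucose-releasing enzyme were lower. SLC2A1 (ENSDARG00000007412, a symbol shared with another identifier), a glucose transporter, was at 1.17, 3.45, 2.35 and 2.13 CPM against 10.4, 7.09, 15.7 and 20.2, a log2 fold change of -2.55 ± 0.40 (SE) (edgeR adjusted p = 0.0104). g6pc1a.1 (ENSDARG00000031616), the phosphatase that frees glucose, was at 42.9, 68.8, 53.96 and 195 CPM against 624, 663, 187 and 575, with fish 624 above control fish 628 (log2 fold change -2.51 ± 0.54 (SE), edgeR adjusted p = 0.0322, and 0.101 without fish 605). PCK1 (ENSDARG00000013522), the committing enzyme of gluconeogenesis, was at 248, 70.8, 65.98 and 1539 CPM against 4801, 2788, 1133 and 5148. The 3 HCC fish other than 624 were under all controls, but fish 624 was not, and the gene was not called (edgeR adjusted p = 0.144). Without fish 624 PCK1 was called lower, with a log2 fold change of -4.75 (edgeR adjusted p = 0.0183), and limma voom with all fish also called it (adjusted p = 0.0382). In glycogen metabolism the synthase GYS1 rose by a log2 value of 1.17 and the branching enzyme GBE1 fell (-1.03). Their edgeR adjusted p values were 0.0257 and 0.0283, and 0.0661 and 0.0949 without fish 604. Of 30 glycolysis genes SLC2A1 was the one called (3.33%, against 1.81% of all genes), and 22 had a negative log2 fold change, with a median of -0.51.

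The summed level of amino acid transporters was lower in every HCC fish. The 41 tested genes summed to 1658, 1263, 1538 and 5054 CPM in the HCC fish and 10248, 8314, 6224 and 8291 in the controls. The groups did not overlap, although fish 624 was well above the other HCC fish, and 5 genes were lower (12.2%, against 1.81% of all genes) and none higher by edgeR, limma voom or DESeq2, with 2 higher at an unadjusted p under 0.05. Much of the sum was SLC38A4, a sodium-coupled transporter of neutral amino acids, at 1473 ± 1441 CPM (SD, n = 4) against 6402 ± 1201, which did not pass (edgeR adjusted p = 0.0542). SLC1A5 (ENSDARG00000099186), a glutamine importer in mammals, was at 5.605, 6.37, 7.55 and 8.46 CPM against 25.1, 46.6, 22.4 and 15.6 (log2 fold change -1.97 ± 0.36 (SE), edgeR adjusted p = 0.0195, and 0.0684 without fish 604). SLC43A1 (ENSDARG00000037748), a carrier of branched amino acids, was at 32.8, 22.7, 31.2 and 91.1 CPM against 259, 143, 142 and 172 (log2 fold change -2.01 ± 0.43 (SE), edgeR adjusted p = 0.0316, and 0.102 without fish 604). The count of lower genes was 0 without fish 623, 1 without fish 604 or 605 and 9 without fish 624, and the list's median stayed between -1.01 and -0.52 under all alternatives.

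Genes of amino acid breakdown were called lower at the share of all genes, 1 of 53 (1.89%, against 1.81%). In this list 40 had a negative log2 fold change, and the median was -0.39, but -0.16 with fish 621 and 622 left out and -0.12 with scaling by library size alone. Without fish 624, 6 were lower. The called gene was TAT (ENSDARG00000069630), tyrosine aminotransferase, at 403, 219.6, 271 and 605 CPM against 2326, 3090.1, 709 and 1617 (log2 fold change -2.37 ± 0.50 (SE), edgeR adjusted p = 0.0308, and 0.0914 without fish 605). OAT (ENSDARG00000078425), ornithine aminotransferase, was lower at 64.7, 71.8, 137 and 129 CPM against 350.1, 171, 304 and 669 (log2 fold change -1.89 ± 0.43 (SE), edgeR adjusted p = 0.0378, and 0.113 without fish 604). In one-carbon metabolism 3 of 35 genes were lower (8.57%, against 1.81% of all genes), and 1 to 5 on omission of 1 fish, the fewest without fish 605. One was dhfr (ENSDARG00000004251), dihydrofolate reductase, at 4.32, 3.51, 3.87 and 4.42 CPM against 10.6, 10.4, 13.4 and 19.9, a narrow range in the HCC fish (log2 fold change -1.75 ± 0.24 (SE), edgeR adjusted p = 0.00658). The methyltransferase GNMT did not overlap between groups and was not called, at 277, 240.1, 304 and 308 against 392, 417, 409 and 409 CPM (edgeR adjusted p = 0.0862).

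**Figure D4:**
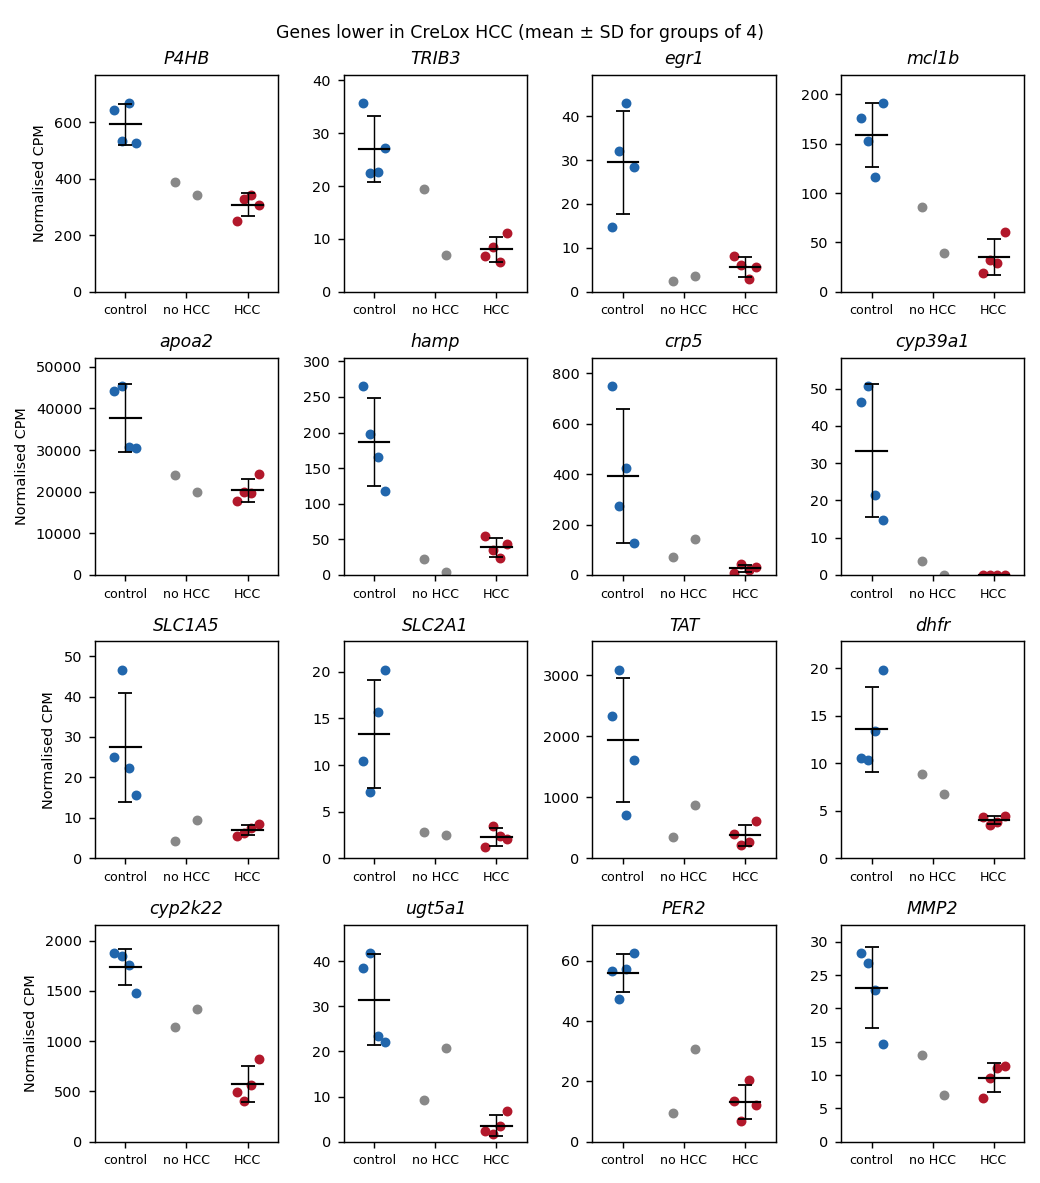
Normalised CPM of 16 genes called lower, per fish, in controls (blue), CreLox fish without HCC (grey) and CreLox fish with HCC (red). Lines are means and bars are SDs for the groups of 4. All HCC fish lie below all controls in each of these panels.

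Detoxification genes changed in both directions. Among 49 cytochrome P450 genes of families 1 to 4, 3 were higher (6.12%, against 2.39% of all genes) and 1 lower. cyp2p8 (ENSDARG00000042982) was at 53.7, 53.2, 35.8 and 17.6 CPM against 4.94, 7.09, 4.81 and 4.47, a log2 fold change of 2.91 ± 0.43 (SE) (edgeR adjusted p = 0.00879), and cyp2k16 and cyp2k18 rose by 4.00 and 1.47 on the log2 scale. The edgeR adjusted p of cyp2k18 was 0.0356, and 0.0951 without fish 605. cyp2k22 (ENSDARG00000040433) was at 496, 409, 564 and 821 CPM against 1877, 1848, 1756 and 1481, a log2 fold change of -1.60 ± 0.23 (SE) (edgeR adjusted p = 0.00750). These genes lie in multigene families, and reads may be split between copies. Conjugation enzymes, which attach sulfate, glucuronate or glutathione, had 5 of 59 lower (8.47%, against 1.81% of all genes) and none higher by edgeR, where 5 had an unadjusted p under 0.05, while DESeq2 called 2 higher and limma voom 1. Without fish 604, 605 or 623, 2 were lower, and without fish 624, 6 were lower and 4 higher. The sulfotransferase sult2st3 (ENSDARG00000028367) was at 2.74, 2.33, 2.41 and 3.95 CPM against 18.4, 34.6, 89.003 and 16.1 (log2 fold change -3.79 ± 0.58 (SE), edgeR adjusted p = 0.00976). The glucuronosyltransferase ugt5a1 (ENSDARG00000016479) was at 2.28, 1.68, 3.56 and 6.81 CPM against 38.5, 41.8, 23.5 and 22.1 (log2 fold change -3.14 ± 0.48 (SE), edgeR adjusted p = 0.00976). The medians of the P450 and conjugation lists, -0.18 and -0.28, turned to 0.11 and 0.01 with scaling by library size alone.

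Few translation and energy genes were called. All but 2 of 79 cytosolic ribosomal protein genes had a positive log2 fold change, with a median of 0.25, and none was called by edgeR, DESeq2 or limma voom, with 4 higher at an unadjusted p under 0.05. With fish 628 and 630 left out that median was 0.00, and scaling by library size alone called 37 higher. Their summed level overlapped, at 97158, 70607, 94069.9 and 92128 against 91819, 83711, 62325 and 61627 CPM. Ribosome biogenesis genes went the other way, with a median of -0.44, which was -0.11 with fish 628 and 630 left out. With fish 621 and 622 left out it was -0.58 and 9 genes were lower, where 913 of all 16564 genes were. None of 64 was called by edgeR, 21 were lower at an unadjusted p under 0.05, and DESeq2 called 10 and limma voom 3, all lower. For 15 of them (23.4%, against 6.5% of all genes) every HCC fish was below every control. Of 93 nuclear genes of oxidative phosphorylation, 69 had a positive log2 fold change and 13 (13.98%, against 7.52% of all genes) were higher in every HCC fish, with 1 called in each direction. The called increase was cox4i1l (ENSDARG00000012388), a subunit of cytochrome oxidase, at 44.6, 143, 68.7 and 37.96 CPM against 1.34, 1.89, 5.64 and 10.2 (log2 fold change 3.94 ± 0.70 (SE), edgeR adjusted p = 0.0170).

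Single transcription factor and hormone genes changed. Of 33 hepatocyte transcription factors 2 were higher (6.06%, against 2.39% of all genes). None was lower by edgeR, where 2 had an unadjusted p under 0.05, while DESeq2 and limma voom each called 1 lower. Of 11 thyroid hormone genes 1 was higher (9.09%). Of 8 vitellogenin and estrogen response genes 1 was lower (12.5%, against 1.81% of all genes). creb3l3a (ENSDARG00000056226), a liver and gut factor that controls lipoprotein genes in mammals, was at 95.3, 93.2, 169 and 62.7 CPM in the HCC fish and 19.2, 22.6, 26.9 and 29.6 in the sibling controls, with a log2 fold change of 2.09 ± 0.31 (SE) (edgeR adjusted p = 0.00879). hnf4b (ENSDARG00000104742), a paralog of the master hepatocyte factor, was at 66.2, 88.1, 91.02 and 54.1 CPM against 30.3, 34.8, 19.8 and 16.3 (log2 fold change 1.57 ± 0.28 (SE), edgeR adjusted p = 0.0179, and 0.0521 without fish 605). HNF4A (ENSDARG00000021494) went the other way, at 133, 101, 72.7 and 212 CPM against 287, 264, 283 and 237, without passing the test (log2 fold change -1.05 ± 0.30 (SE), edgeR adjusted p = 0.0765). Without fish 624 it passed (edgeR adjusted p = 0.0130). IYD (ENSDARG00000076056), an enzyme that recycles iodide in the thyroid, was at 86.3, 39.96, 56.4 and 23.6 CPM against 0, 0.194, 0 and 0 (edgeR adjusted p = 0.00118), with 4 counts in all in the controls. ESR1 (ENSDARG00000004111), the estrogen receptor, was lower at 0.788, 1.21, 1.08 and 1.95 CPM against 3.94, 6.46, 2.12 and 4.24 (log2 fold change -1.74 ± 0.39 (SE), edgeR adjusted p = 0.0360, and 0.105 without fish 604). IGF1 overlapped, at 21.5, 26.6, 25.2 and 46.6 against 67.3, 19.03, 96.8 and 145 CPM.

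Clock genes were lower for 3 of 36 members (8.33%, against 1.81% of all genes), and for 0 without fish 604 or 605. PER2 (ENSDARG00000034503), a repressor arm of the clock, was at 13.6, 6.80, 20.4 and 12.1 CPM against 56.7, 47.5, 57.3 and 62.6, a log2 fold change of -2.08 ± 0.40 (SE) (edgeR adjusted p = 0.0225, and 0.0701 without fish 604). npas2 and cry5 fell too (-3.54 and -2.61 on the log2 scale, edgeR adjusted p = 0.0225 and 0.0495, and 0.0730 and 0.138 without fish 604). The clock gene NR1D1 overlapped, at 55.2, 43.96, 63.4 and 108 against 58.1, 36.3, 30.5 and 98.2 CPM. The hour of sampling is not given in the sources used here, so its part was not tested.

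Some matrix genes and a macrophage marker were lower. Of 45 extracellular matrix genes 4 were lower (8.89%, against 1.81% of all genes) and none higher by edgeR or limma voom, with 3 higher at an unadjusted p under 0.05 and 1 by DESeq2. MMP2 (ENSDARG00000017676), a gelatinase, was at 6.57, 9.51, 11.05 and 11.4 CPM against 28.3, 26.8, 22.8 and 14.6 (log2 fold change -1.27 ± 0.29 (SE), edgeR adjusted p = 0.0378, and 0.110 without fish 604). COL5A2 and COL6A3 were also lower (-1.60 and -0.95 on the log2 scale, edgeR adjusted p = 0.0443 and 0.0352, and 0.129 and 0.110 without fish 604). The summed level was 4268, 3026, 3628 and 10209 CPM against 12429, 12354, 5888 and 7152 and overlapped through fish 624, most of it the plasma and matrix protein fibronectin (FN1). None was lower without fish 604, 605, 622 or 623, and 6 were without fish 624. The list's median was -0.22 with fish 621 and 622 left out. Of 22 macrophage markers csf1ra alone was called (4.55%, against 1.81% of all genes), lower by -1.45. The edgeR adjusted p of csf1ra was 0.0378, and 0.117 without fish 604, and omission of any 1 of 7 fish lost the call. The summed level of the macrophage markers was 402, 429, 466 and 315 CPM against 617, 961, 617 and 497, without overlap. Endothelial markers kdrl and cdh5 overlapped between groups, and none of the 17 in that list was called by edgeR or limma voom, with 1 higher and 1 lower at an unadjusted p under 0.05 and 1 higher by DESeq2. The hormone gene gcga (ENSDARG00000079296), which encodes glucagon and is a marker of endocrine pancreas and gut, was higher at 9.31, 28.4, 5.98 and 0.521 CPM against 0.0866, 0.194, 0.166 and 0.230 (edgeR adjusted p = 0.0225), a call lost in limma voom (adjusted p = 0.263). Hepatocyte markers were present throughout, tfa being at 39235, 34502, 27766 and 31303 CPM in the HCC fish and 53003, 54909, 29750.3 and 19692 in the controls. Of 13 such markers apoa2 and TAT were called lower (15.4%, against 1.81% of all genes), and 1 had a positive log2 fold change. The median of these markers was -0.52, and -0.18, with none called, when controls 621 and 622 were left out.

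**Figure D5:**
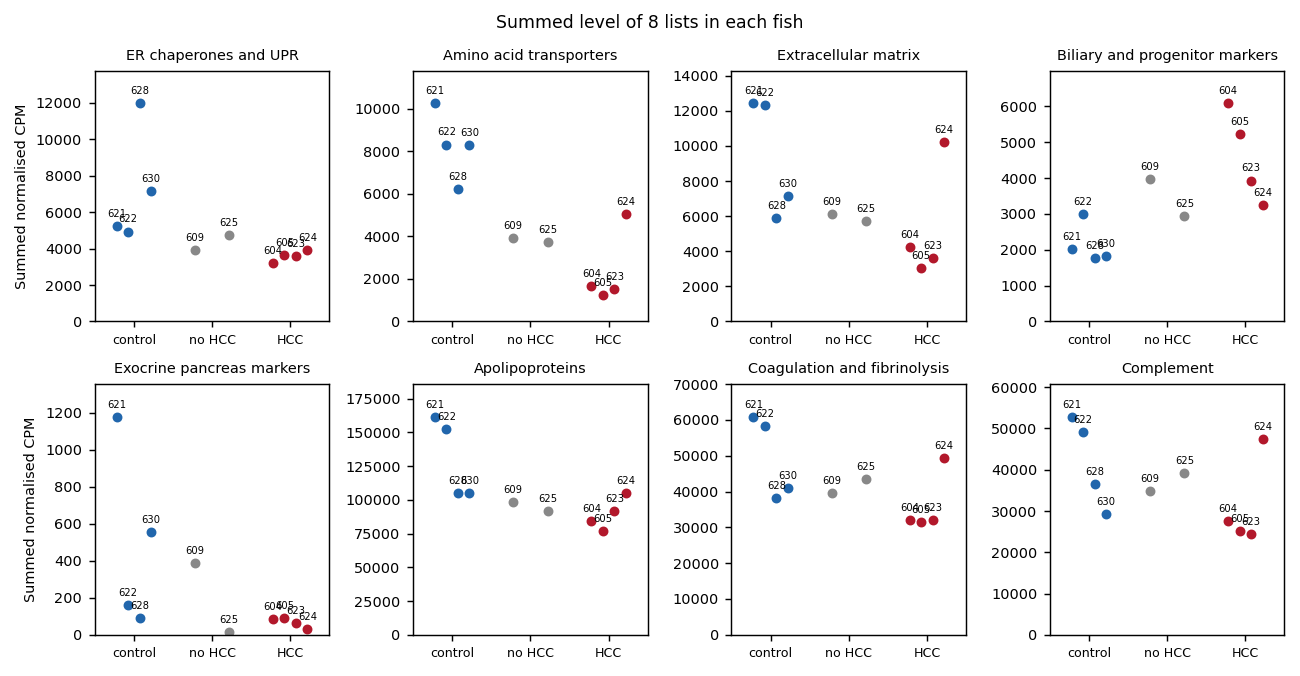
Summed normalised CPM of 8 lists in each fish, labelled by fish number, for controls (blue), CreLox fish without HCC (grey) and CreLox fish with HCC (red). The groups do not overlap for ER chaperones, amino acid transporters, biliary markers and exocrine pancreas markers. For the extracellular matrix, apolipoprotein, coagulation and complement lists, HCC fish 624 lies within the range of the controls.

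Large changes were also found outside the liver lists. LDLRAD2 (ENSDARG00000090297) was at 29.1, 31.5, 22.9 and 5.51 CPM in the HCC fish and at 0 in all 4 controls. Against a floor of 3 counts per library it was at least 177-fold higher (edgeR adjusted p = 0.0129), but limma voom did not call it (adjusted p = 0.136). In the opposite sense, the controls had 4.33, 2.82, 3.15 and 2.30 CPM of si:dkey-150l7.10 (ENSDARG00000105608), which was at 0 in each HCC fish and so at least 31.96-fold lower (edgeR adjusted p = 0.00126). The non-HCC CreLox fish had 4.64 and 6.37 CPM of it, above the control range. Several other called genes were under 0.6 CPM in each control, and 3 of them are given here. The membrane glycoprotein GPM6A (a symbol shared with another identifier) was at 68.9, 120.2, 24.9 and 1.08 CPM against 0, 0.534, 0.133 and 0.0461, the relaxin gene rln1 at 5.605, 23.3, 20.2 and 4.21 against 0.0866, 0, 0.0332 and 0, and the thyrotropin receptor TSHR at 8.90, 7.24, 2.94 and 0.694 against 0.0433, 0, 0 and 0. Fish 624 was lowest of the HCC fish for each, and limma voom called none of them (adjusted p of 0.323, 0.258 and 0.218). Also called higher were dtnbp1b, FAM167A and prlhr2b, by 8.87, 8.61 and 8.30 on the log2 scale (edgeR adjusted p = 0.0135, 0.00742 and 0.00161). Limma voom did not call these either (adjusted p of 0.355, 0.217 and 0.0550). Among decreases, the ephrin receptors EPHB2 and EPHA3 were at 0.555, 0.280, 0.433 and 0.781 and 0.409, 0.559, 0.310 and 0.911 CPM in the HCC fish and at 8.53, 10.05, 9.02 and 2.58 and 15.8, 1.21, 16.4 and 34.4 in the controls. EPHB2 passed under each of the 17 alternatives (edgeR adjusted p = 0.00361).

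Grouped by the stem of the gene symbol, 67 families had at least 20 tested genes. Solute carriers had 17 of 289 lower (5.88%, against 1.81% of all genes) and 8 higher (2.77%, against 2.39%). Collagens had 4 of 29 lower (13.8%) and 2 higher (6.90%), and glucuronosyltransferases 4 of 29 lower (13.8%). Under the stem sema 3 of 22 were lower (13.6%) and 1 higher (4.55%), under trim 3 of 42 lower (7.14%) and 4 higher (9.52%), and under tspan 2 of 22 lower (9.09%) and 1 higher (4.55%). The shares over all genes were 1.81% lower and 2.39% higher. Zinc finger genes under the stem znf had 4 of 212 higher (1.89%, less than the share of all genes). None of them was lower by edgeR, with 9 lower at an unadjusted p under 0.05. Of the 212, 141 had a positive log2 fold change, with a median of 0.28.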

How the data were processed

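Livers of 10 fish (the CreLox model) were measured by mRNA sequencing (stranded TruSeq libraries, paired reads). Adapters were trimmed and optical duplicates taken out before reads went to STAR 2.6.1b (GRCz11, Ensembl gene models) and featureCounts 1.6.3, and the table deposited by the authors holds the resulting raw counts per gene. The labels also name DESeq2 1.22.2, which the authors used for differential expression. A second deposited table, of another model, was not used here.

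Here the counts were tested with edgeR 4.0.16 in R 4.3.3 (TMM scaling, filterByExpr, quasi-likelihood test) in 1 model of 3 groups over 10 libraries (4 HCC, 4 controls, 2 CreLox fish without HCC), with Benjamini-Hochberg adjustment over 16837 genes and an adjusted p under 0.05 called. The study's methods used DESeq2, and here DESeq2 1.42.0 and limma 3.58.1 served as alternatives, beside other scalings and filters, the 8 compared libraries alone, an added fold limit and omission of each fish. Omission of each control pair was added after seeing the data. The study's methods count 3 fish with HCC and the labels 4, which were used. Fish are separate animals, and total counts of 20903187 to 31074527 per library limit the precision of low genes.

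Symbols came from a gene name table (29201 of 32520 identifiers matched). Members and lists (53, and 3 added after values were seen) were chosen with earlier results of these data known. Genes were named by rule: 1 or 2 leading genes of a list, up to 4 called per direction and list with a mean of at least 1 CPM, the 10 largest changes per direction with groups apart, and called genes among the 50 most abundant. Some others are said to be chosen after their values were seen. SLC38A4, SOX9, epcam, PROM1, actb2, STT3A and anpeplb also fall outside the rule, and are not to be read as set in advance. Promoter sequences were not analysed here, since no reference genome was used.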

Additional observations from a re-analysis of the deposited data

Results flagged for a closer look

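In 9 of 116 groups of 4 fish examined, 1 fish lay far from the other 3. Chance alone gives about 1 in 20 for normally distributed values, which CPM need not be, so no excess over chance is read from this count. All 9 flagged values were above the other 3 fish of their group. The groups are not independent, since SLC43A1 is also part of the amino acid transporter sum. CreLox HCC fish 624 accounted for 7 of the 9. Its level was 1539 CPM for PCK1 (other HCC fish 66.0 to 248), 195 for g6pc1a.1 (42.9 to 68.8), 487 for PDIA3 (313 to 339) and 91.1 for SLC43A1 (22.7 to 32.8). Its summed levels were also apart, at 49445 CPM for coagulation genes (31365 to 32099), 47543 for complement genes (24494 to 27648) and 5054 for amino acid transporters (1263 to 1658). Each of these 7 values lies on the side of the controls, as does the place of fish 624 on the first principal component. All 7 are for genes or sums with a lower mean in the HCC fish, where any high value lies on that side. Control fish 622 stood apart for cldn15la at 1.31 CPM (others 0.0663 to 0.138). It was also flagged for IYD at 0.194 CPM, but with the other controls at 0 any count would have been flagged.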

How the results depend on the processing

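Counts of called genes depended on the tool and on single fish. DESeq2 gave 1023 higher and 1026 lower genes, scaling by library size alone 854 and 188, and the fit with controls 621 and 622 left out 773 and 913. Leaving out 1 fish gave 165 to 560 higher and 69 to 436 lower genes, the low ends without HCC fish 604 and the high ends without fish 624. With controls 628 and 630 left out the counts were 298 and 302, and limma voom gave 319 and 418. Higher genes made up 57.0% of calls in edgeR, 82.0% with library size alone, 49.9% in DESeq2, 43.3% in limma voom and 45.8% without controls 621 and 622. The other scalings and filters, the 8 libraries alone and an added log2 fold change of at least 1 gave 363 to 408 higher and 244 to 304 lower. Of 98 named genes called, none changed direction under any of up to 17 alternatives, 21 passed in all of them, 27 lost their call in limma voom and 66 on omission of at least 1 fish, where the highest adjusted p was 0.143. Omission leaves 3 fish against 4. For genes of few counts the depth limits what could be detected. No paired analysis was possible because the groups share no fish numbers.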
